A study of Mus musculus with 2 samples.

Results

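The CTCF-dense window at Dmpk, Six5 and Foxa3 spans 19 to 19.2 Mb of chromosome 7 (mm10) and held 31 of the 65482 peaks in the authors' optimal list. The window and its 8 listed genes were chosen by the number of peaks in it, so that number is a description and supports nothing below. The genes, in order, are Mypop, Irf2bp1, Foxa3, Sympk, Rsph6a, Dmwd, Dmpk and Six5. The material was kidney of newborn B6NCrl mice (0 days after birth), immunoprecipitated with a CTCF antibody and sequenced, in 1 group of 2 libraries labelled as biological replicates 1 and 2. No allele, treatment or sex is given in the labels, and no second group was compared. Both libraries carry the same biosample and donor labels, so the spread between them may be technical. The lists hold no read counts, so depth is unknown. No expression was measured, so the tissue label was not tested against marker genes. In whole kidney, strong binding in few cells and weak binding in many cannot be told apart.

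CTCF is a zinc-finger protein that binds a long, directional DNA motif and holds cohesin at the anchors of chromatin loops. Pairs of sites whose motifs point toward each other tend to anchor a loop, which is why the strand of each motif is given here. The DMPK-SIX5 locus is known for the CTG repeat in the 3′ UTR (untranslated region) of human DMPK, whose expansion causes myotonic dystrophy, and for CTCF sites beside that repeat. Dmpk encodes a serine/threonine kinase of muscle, and Six5 a homeobox transcription factor.

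The sites below carry the main results. They are the motif matches at the peaks of Dmpk, at the 3 peaks of highest signal in the window, and at peaks of Foxa3, Sympk and Rsph6a; the last group was added after the values were seen. Each is read 5′ to 3′ along the strand of the motif from the GRCm38.p6 assembly, with the 19 matched bases in capitals and 5 flanking bases on each side. Positions of the capitals are on chromosome 7.
Irf2bp1 3′ UTR, 19006678 to 19006696, forward: cgttgTGACCACTAGGTGGTGCCTtttgt
Foxa3 promoter, 19023647 to 19023665, reverse: cttgaGATCCCGCAGGGGGCGCCCcaatc
Sympk coding exon, 19054379 to 19054397, forward: ctctcCCGCCACCAGGAGGCAGCAgcagt
Rsph6a intron, 19068918 to 19068936, forward: tgctcTGCCCACCAGAGGGCAGAActttt
Dmpk interior, 19089005 to 19089023, reverse: cacagGCCCCAGCAGGGGGCAGTCgtgct
Dmpk 3′ UTR, 19093271 to 19093289, reverse: ctcccCGGCCGCCAGGTGGCAGGCctgga
Gipr intron, 19157608 to 19157626, forward: cagggTGGCCGCCAGGGGGCACGGgcggg
Upstream of Eml2, 19173180 to 19173198, reverse: atctaCAACCACCAGGGGGCAGTCgggga
The consensus of the matrix that found them was TGGCCACCAGGGGGCGCTA. No 2 of these 8 sites were identical.

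The highest-signal peak of the window lay at the 3′ end of Irf2bp1, which encodes a transcriptional corepressor. Its interval ran from 19006491 to 19006882, with the summit in the 3′ UTR, 95 bp before the end of the gene. It ranked 175 in the optimal list, a signal percentile of 99.7 (the percentage of optimal peaks with equal or lower signal). It ranked 162 in the list of replicate 1 and 255 in that of replicate 2, where rank 1 is the highest signal of 300000 peaks. The gene's other peak, at its promoter, was among the weakest of the window. Its summit at 19003809 lay 235 bp before the transcription start site (TSS), at percentile 10.3. It ranked 42552 in replicate 2 and had no match among the 300000 peaks of replicate 1. The promoter peak had no motif match.

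**Figure D1:**
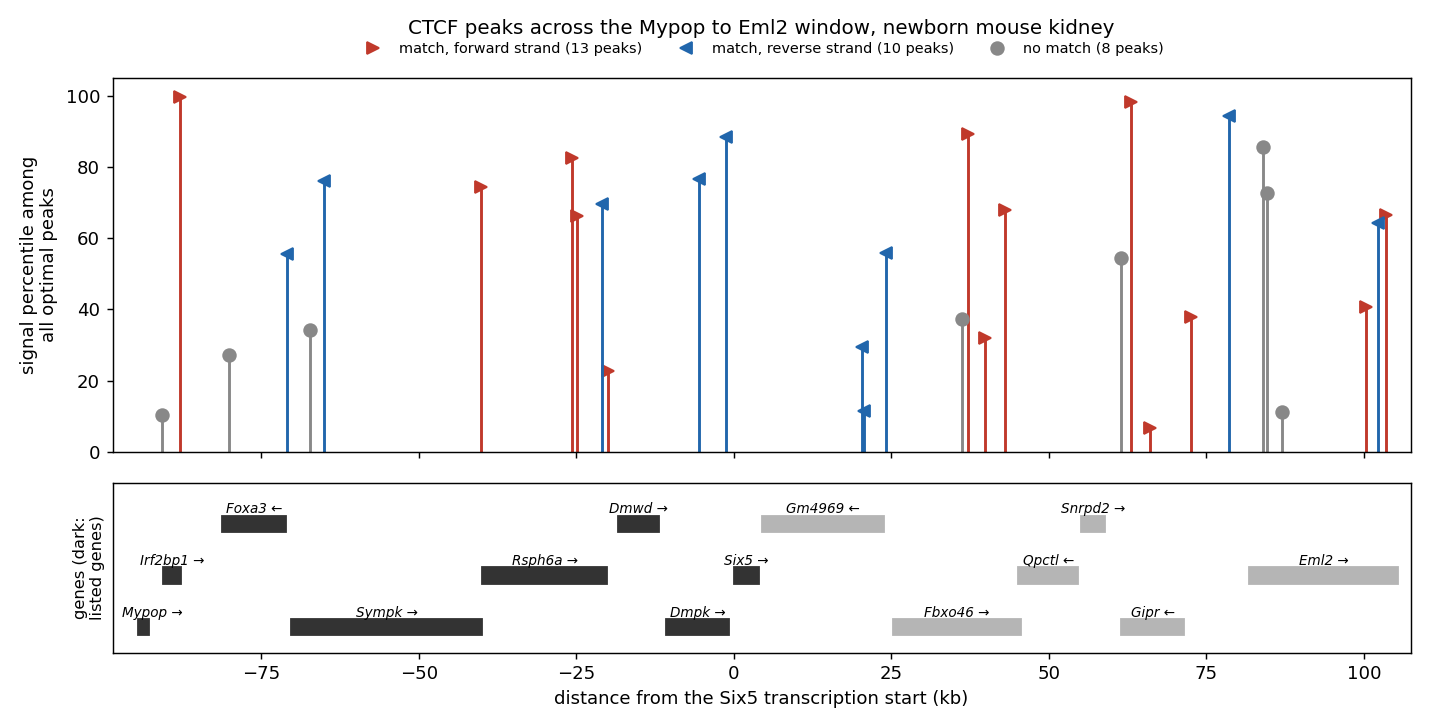
Signal percentile of each of the 31 peaks (upper panel, y axis) and the genes (lower panel) against distance from the Six5 transcription start in kb; triangles point along the strand of the motif match, grey circles have none, and dark boxes are the 8 listed genes. The peak at the Irf2bp1 3′ end stands at percentile 99.7, and no peak lies inside Six5.

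Foxa3, which encodes a forkhead transcription factor best known from liver, and Sympk, which encodes the scaffold protein symplekin of mRNA cleavage and polyadenylation, start 839 bp apart in opposite directions. The peak between them (19023611 to 19023723) had its summit 119 bp before the Foxa3 TSS and 720 bp before the nearest Sympk TSS. Its percentile was 55.6, with ranks of 28373 in replicate 1 and 29913 in replicate 2, and the library summits were 1 bp apart. It was the only peak of the listed genes whose match lay inside a RefSeq promoter, taken as 250 bases before to 50 after the gene start (GRCm38.p6). Of the 8 listed promoters 1 held a match on either strand, against 1807 of 32851 RefSeq promoters (5.50%). The second Foxa3 peak lay in a coding exon, at percentile 27.3, had a soft-masked summit (interspersed or simple repeat) and no match.

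Inside Sympk lay 3 peaks. The intronic peaks at 19027271 and 19029476 had percentiles of 34.1 and 75.9. The second, the highest in Sympk, ranked 15376 and 17062 in replicates 1 and 2 and carried a reverse match. The third had its summit at 19054398 in a coding exon, 220 bp before the 3′ end of Sympk and 292 bp before the TSS of Rsph6a. It ranked 16478 in replicate 1 and 17267 in replicate 2, at percentile 74.3, and the summits of the libraries were 4 bp apart. A single peak therefore counts both for the 3′ end of Sympk and for the promoter of Rsph6a. The stretch of 24922 bp before it, inside Sympk, was the longest without an optimal summit in the window.

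Rsph6a, which encodes a radial spoke head protein of motile cilia and flagella, held 3 intronic peaks, all with matches. The highest, at 19068933, had percentile 82.6 and ranks of 9521 and 12259 in replicates 1 and 2. The next lay 764 bp further on, at percentile 66.1, with its motif on the same strand (forward). The third, at 19073702, pointed the other way and had percentile 69.6. A weaker peak at 19074691, at percentile 22.8, lay 244 bp past the 3′ end of Rsph6a and 1536 bp before the nearest TSS of Dmwd. Dmwd, which encodes a WD-repeat protein, held no peak itself.

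At Dmpk the optimal list placed 2 peaks, and both carried reverse-strand matches. The stronger (19093145 to 19093430) had its summit at 19093280 in the Dmpk 3′ UTR. That is 181 bp past the last coding base, 541 bp before the 3′ end of the gene and 1314 bp before the only annotated TSS of Six5. Its percentile was 88.5, with an optimal rank of 7536 and library ranks of 7782 and 5964. The library summits were 2 bp apart, and the centre of the motif match coincided with the optimal summit. The other peak (19088882 to 19089127) lay 5162 bp into Dmpk, in an exon of a transcript without coding sequence, and 4269 bp before the first. It had percentile 76.6 and ranks of 13966 and 16827 in replicates 1 and 2. Both intervals were also in the conservative list. Of the 2 peaks, the one in the 3′ UTR ranked higher in each library.

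Between the last exon of Dmpk and the 3′ end of Six5 the optimal list held 1 summit, the one in the 3′ UTR. Six5 itself had no optimal summit, and the next one lay 16318 bp past its 3′ end, inside Gm4969. The gap of 21587 bp across Six5 was the second longest in the window. In the full list of replicate 1, this stretch held 6 further peaks that overlapped no optimal peak, at ranks of 92090 to 227681. In the list of replicate 2, 0 of the 6 overlapped any peak. The full list of the pooled libraries held 3 further peaks there, at ranks of 92274 to 220933 of 300000. Across Dmpk and Six5 the matrix gave 3 matches, of which 2 lay within 100 bp of an optimal summit. The third, at 19089653 to 19089671 in a Dmpk intron, lay 651 bp from the nearest optimal summit, and it reads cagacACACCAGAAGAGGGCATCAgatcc. In the mouse reference, runs of at least 3 copies of CTG or CAG on the forward strand occurred at 2 places from the start of Dmpk to the end of Six5, each with 3 copies of CTG. They lay at 19089108 to 19089116 and at 19092498 to 19092506. The first was inside the interval of the interior Dmpk peak (19088882 to 19089127). The second was in a coding exon, 782 bp before the 3′ UTR summit. Neither lay in the 3′ UTR.

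**Figure D2:**
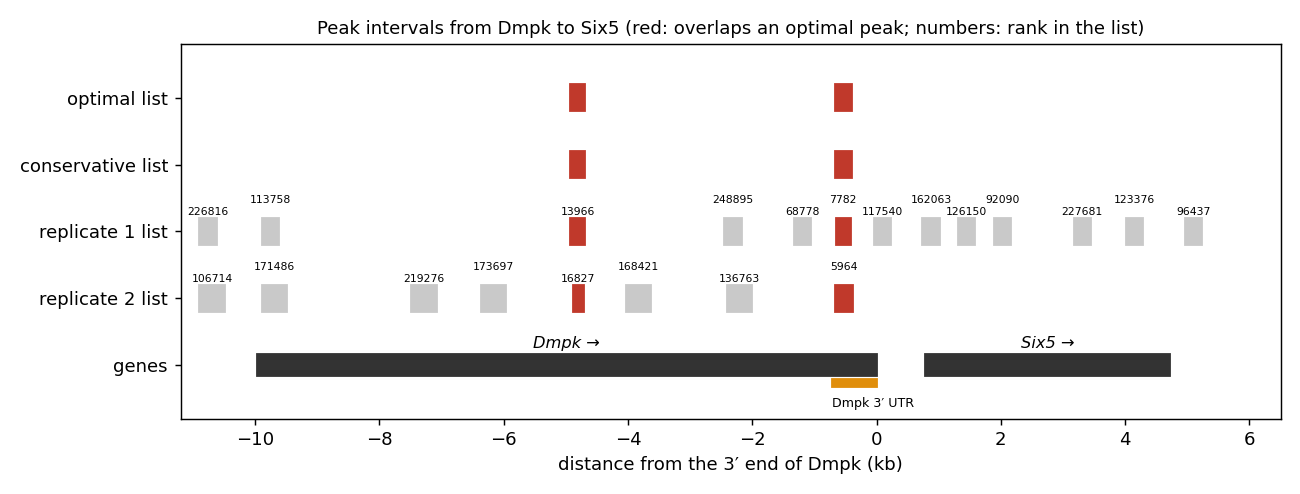
Peak intervals of the optimal, conservative, replicate 1 and replicate 2 lists (rows; the pooled list is not drawn) against distance from the 3′ end of Dmpk in kb; red intervals overlap an optimal peak, grey ones do not, and the numbers are ranks in each library's list of 300000. The peaks in the 3′ UTR (ranks 7782 and 5964) and in the Dmpk interior (13966 and 16827) are in all 4 lists, and of these 4 lists only that of replicate 1 has grey intervals over Six5.

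Mypop, which encodes a Myb-related transcription factor, reaches into the window only with its 3′ part and had no summit there. Outside the window, an intronic peak at 18999026 (percentile 32.9, reverse match) was the nearest summit below the window's lower edge. Its promoter peaks at 18990669 and 18990868, at percentiles of 6.17 and 1.46, overlapped 1 and the same peak in each library, of rank 62634 in replicate 1 and 87841 in replicate 2. The first summit above the upper edge lay at 19209136, at percentile 92.5. From Mypop to Six5 the window held 13 peaks, 10 inside a listed gene and 3 between them, with a median percentile of 69.6. Beyond Six5 lay 18 peaks, with a median of 55.2.

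Those 18 peaks lay at Gm4969, Fbxo46, Gipr and Eml2 or between genes. Fbxo46, an F-box protein gene, held 4, the highest in its 5′ UTR, 48 bp past a TSS, at percentile 89.3 and ranks of 5077 and 8429. Gipr, which encodes the receptor of the gut hormone GIP, held the second-highest peak of the window, in an intron at 19157617. Its percentile was 98.2 and its ranks were 1392 in replicate 1 and 1331 in replicate 2. Gipr also held the lowest, in a coding exon at 19160698, at percentile 6.69 and ranks of 74499 and 64710. The third-highest, at 19173179, was intergenic, 3242 bp before Eml2, a microtubule-associated protein gene, at percentile 94.4 and ranks of 4612 and 3475. Eml2 held 6 peaks, at percentiles of 11.3 to 85.6. Qpctl and Snrpd2 held none and had no promoter peak. Of these 6 other genes, Gm4969, Fbxo46 and Eml2 had a summit within 1 kb of a TSS. For Fbxo46 and Eml2 that TSS was internal, and the summits nearest their 5′ ends were 1188 and 2184 bp away. Only Gm4969 had a summit within 1 kb of its 5′ end, at 303 bp.

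Signal in the window spread over most of the genome's range, from percentile 6.69 to 99.7, with a median of 64.3. In the libraries the median ranks of the window's peaks were 23088.5 (replicate 1, over 30 matched peaks) and 27883 (replicate 2), against 32502 and 32241.5 over all optimal peaks. Ranks in the 2 libraries differed by a median factor of 1.18, against 1.26 over all optimal peaks matched in both. Of the 30 peaks matched in both libraries, 19 ranked higher in replicate 1 and 11 in replicate 2. Library summits lay a median of 14.5 bp apart in the window and 13 bp over all peaks.

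Of the 31 peaks, 26 (83.9%) overlapped the upper set of both libraries, against 78.6% of all optimal peaks. The upper set is the top 65482 peaks of a library's list by signal, the length of the optimal list. The conservative list held 28 of them (90.3%), against 83.8% of all optimal peaks. The 3 it lacked were those on which the libraries differed most: the Irf2bp1 promoter peak, an Fbxo46 intron peak at 19130867 (ranks 37248 and 107625) and an Eml2 exon peak at 19181538 (ranks 55736 and 191308). None of these 3 had a motif match. The conservative list had a further 2 peaks in the window, both in Rsph6a introns, at 19056907 and 19071224. Without replicate 1 the window held 34 peaks, in the upper set of replicate 2, and without replicate 2 it held 30.

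**Figure D3:**
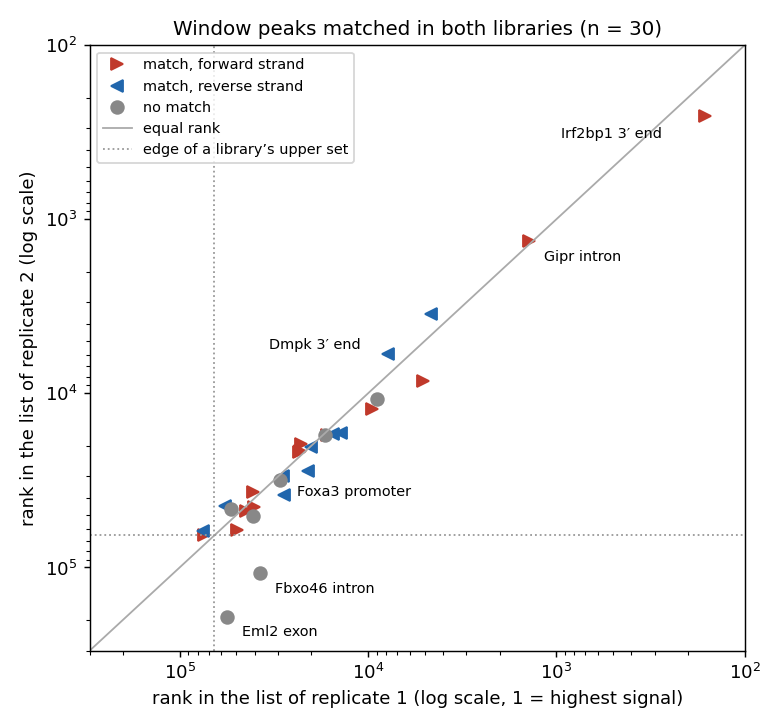
Rank of each peak in the list of replicate 1 (x axis) and replicate 2 (y axis), both on log scales with the highest signal at the upper right, for the 30 peaks matched in both; the solid line marks equal rank and dotted lines the edge of each upper set. The Fbxo46 intron peak (37248 and 107625) and the Eml2 exon peak (55736 and 191308) lie farthest below the line.

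A match of the CTCF matrix lay within 100 bp of the summit at 23 of the 31 peaks (74.2%), against 68.6% of all optimal peaks and 2.79% of control windows 2 kb away. At the stricter score that 1 in 100000 control positions passed, 8 of the peaks had a match. The share of all optimal peaks at that score is not given here, so the 8 cannot be set against the genome. Peaks with a match had a median percentile of 66.4 and those without one 35.8; over all optimal peaks the medians were 59.9 and 31.1. The Eml2 intron peak at 19178605, the highest without a match at percentile 85.6, scored 12.3, just under the threshold of 12.4, and the lowest score that passed was 12.5, at the Sympk intron. Match centres lay a median of 5 bp from the summit in the window and 6 bp over all peaks. Across the whole window the matrix gave 65 matches, and 40 lay more than 100 bp from any optimal summit. Of those 40, a summit of the full list lay within 100 bp at 13 in replicate 1 and at 11 in replicate 2. The full lists held 97 and 84 peaks in the window. Because 1 in 10000 control positions passes the score, some matches arise away from any site. No share over the genome is given here for these counts, so the 40 cannot be read as unoccupied CTCF sites.

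Of the 23 matches 13 were forward (56.5%), against 49.8% over all peaks, and 10 were reverse. With the stricter score 6 were forward, and the share over all peaks at that score is not given here. In order along the window, the strands formed 11 runs, of which 7 were a single match. In the 3 longest, the 3 matches from the end of Sympk into Rsph6a were forward, the 5 from the Dmpk interior through the Dmpk 3′ UTR to the peak 303 bp before Gm4969 were reverse, and the next 6, from the Fbxo46 5′ UTR to the peak upstream of Gipr, were forward. Across Six5 the flanking matches, at the Dmpk 3′ UTR and in Gm4969, thus pointed the same way. None of the 5 matches in this reverse run, both Dmpk matches included, passed the stricter score of 18.3. The highest of them scored 18.2, in Gm4969, and the Dmpk matches scored 17.4 and 16.2. Of the 22 neighbouring pairs, 5 were convergent, 5 divergent and 12 in tandem; over all chromosomes 52.4% of neighbouring pairs were in tandem.

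Several matches came from repeats with closely related letters. The summit was soft-masked at 12 of the 31 peaks (38.7%), against 22.0% of all optimal peaks. Those 12 had a median percentile of 35.8 and a highest of 66.4, and the other 19 a median of 74.3; over all optimal peaks the medians were 35.9 and 55.4. Of the 23 matches, 6 (26.1%) contained the letters AGAAGAGGG, read along the strand of the match, against 19.8% of all matches; these letters were chosen after the sites were seen. All 6 lay at soft-masked summits, as did 92.9% of such matches over all peaks. They are shown by the 3 of highest signal (percentiles 66.1, 40.7 and 66.4, in the order below). These share the letters by selection, and only the surrounding bases differ.
Rsph6a intron, 19069679 to 19069697, forward: tttgaCAGCCAGAAGAGGGCGCTGttggg
Eml2 intron, 19194872 to 19194890, forward: cacacAGGCCAGAAGAGGGCACCAgatcc
Eml2 intron, 19198180 to 19198198, forward: tgtatTGGCCAGAAGAGGGCGTCAggtcc
The 6 had a median percentile of 36.4 and the other 17 one of 74.3. Over all optimal peaks with a match, the medians with and without these letters were 35.5 and 66.7. The match in the Dmpk intron that lay more than 100 bp from any optimal summit holds the same letters.

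Within 1 kb of a TSS of a protein-coding gene were 9 summits (29.0%), against 16.6% of all optimal summits. With the 5′ ends of genes alone there were 4, and the share of all optimal summits near gene 5′ ends is not given here. The summits lost from the 9 include both Dmpk peaks. Their nearest TSSs, 826 and 984 bp away, belong to short transcripts that start 4336 and 8447 bp into the gene. Within 1 kb of a gene's 3′ end were 6 summits (19.4%), against 3.44% of all optimal summits. Leaving out those that also lay near a TSS, 4 were left (12.9%), against 2.70%. Of the 8 listed genes, 6 had a summit within 1 kb of a TSS, against 39.4% of 21755 protein-coding genes, and Dmwd and Six5 did not. Counting only gene 5′ ends, 5 of the 8 had one, against 31.3%, and Dmpk no longer did. Among these 5, Foxa3 and Sympk share 1 peak, and the Mypop peaks lie outside the window. The promoter peaks of Mypop and Irf2bp1 were not in the conservative list and did not overlap the upper set of both libraries. At the 3′ end, Irf2bp1, Sympk, Rsph6a and Dmpk had a summit within 1 kb, 4 of 8 against 10.3% of all genes. The window was chosen for its peak number and held the starts of 13 protein-coding genes, against a median of 1 per 200 kb bin. These shares describe the window and were not tested.

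Relatives of the listed genes elsewhere in the genome were examined in the same way. Foxa1 had a summit within 1 kb of a TSS (982 bp away, percentile 67.8), as Foxa3 did (119 bp), and Foxa2 had its nearest at 1676 bp. Of 11 cleavage and polyadenylation genes besides Sympk, 6 had one, highest at Cpsf1 (percentile 96.8). Of 6 radial spoke head genes besides Rsph6a, 1 had one, Rsph3a (21.4). Irf2bp2 had one at percentile 45.8 and Irf2bpl none. Of 6 kinases related to Dmpk, 2 had one, Cdc42bpg (79.6) and Cit (55.3). Across these lists, with the listed genes left out, the shares ran from 16.7% to 54.5%, against 39.4% of all genes.

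With 31 summits the window tied with 5 others for rank 7 among 12685 aligned bins of 200 kb. The bins next to these in number held 30 and 32, the median bin held 4, and 2408 held none. The neighbouring bins held 15 (before) and 23 (after). Moved by 50 kb to lower or higher coordinates, the window held 26 or 30. The window was also rich in genes and in G and C. Starts of 13 protein-coding genes lay in it, against a median of 1, and its GC content was 51.1%, against a median of 41.3%. Bins with at least 13 gene starts (83 bins) held a median of 17 peaks and at most 33. Bins within 1 percentage point of its GC content (241 bins) held a median of 16 and at most 37. Over all bins, which share libraries and lists, Spearman's rho between peaks and gene starts was 0.57, and between peaks and GC content 0.79. The part of gene density and base composition in the window's number was not tested.

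**Figure D4:**
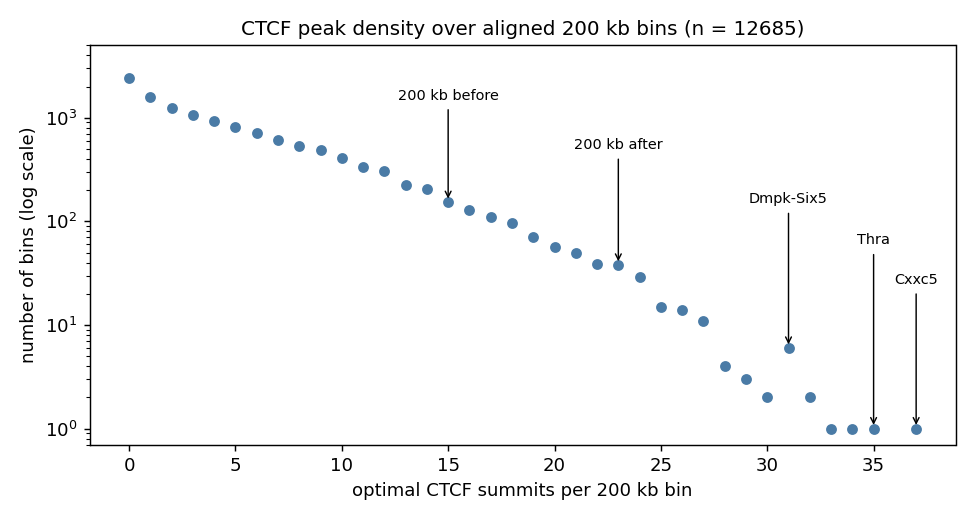
Number of aligned 200 kb bins (y axis, log scale) with each number of optimal CTCF summits (x axis), over 12685 bins; arrows mark the Dmpk-Six5 window, its neighbouring bins and the bins of Thra and Cxxc5. The Dmpk-Six5 window, at 31, lies near the upper end, between its neighbours at 15 and 23 and the bins of Thra (35) and Cxxc5 (37).

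The window was set beside the 2 densest bins and its neighbours. The bin with Cxxc5, on chromosome 18, held 37 peaks with a median percentile of 34.6, and that with Thra, on chromosome 11, held 35 with a median of 50.3, against 64.3 here. A motif match was found at 45.9% of the peaks in the Cxxc5 bin, 51.4% in the Thra bin and 74.2% here. Summits within 1 kb of a TSS made up 2.70% in the Cxxc5 bin, where 2 protein-coding genes start, and 31.4% in the Thra bin, where 10 do. In the neighbouring bins the median percentile was 26.7 (before) and 77.0 (after), and 73.3% and 60.9% of their peaks had a match. The Cxxc5, Thra and Dmpk-Six5 bins were chosen for their peak number, and these differences were not tested.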

How the data were processed

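CTCF binding was mapped in 2 libraries of newborn mouse kidney. The authors deposited 5 narrowPeak lists on mm10, per the labels and the notes beside the files: 1 per library, 1 pooled, and a conservative and an optimal list thresholded for reproducibility. The deposited signal value of each peak is the authors' own, on a scale that depends on depth, and was used only for ranks and percentiles within a list. For aligner, peak caller and thresholds, names and settings were not given in the sources used here. Peaks were placed by their summits against GENCODE M21 and RefSeq GRCm38.p6, the same assembly as mm10, on chromosomes 1 to 19 and X. A library peak matched an optimal peak if they shared at least 1 bp, and the highest-signal one was taken. A 19 bp CTCF matrix was learned from optimal peaks on even-numbered chromosomes and X, outside soft-masked sequence. Its threshold was set so that 1 of every 10000 positions in control windows scored above it. Those positions were also on these chromosomes and outside soft-masked sequence. The search for matches included soft-masked sequence, where that rate was not set. The matrix search and bin counts were checked on simulated sequence. Software was Python 3.11.15, numpy 2.4.6, pandas 2.3.3, scipy 1.17.1 and matplotlib 3.10.9. No tests were run: there is 1 group, and the window was chosen for its peak number. The window, its genes, the related gene lists and the comparison bins were chosen with earlier results of these data known. One related gene list is not reported here. Named in full are the Dmpk and Six5 peaks, each listed gene's highest peak, and the 3 highest and 3 lowest peaks. Alternatives were other lists, either library left out, overlap rules, TSS distances, motif scores and window positions.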

Additional observations from a re-analysis of the deposited data

How the results depend on the processing

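Of 38 alternative values, 31 stayed close to the reported one (counts within 1.5 times, the median percentile within the SD of 8.29 between the library medians). That SD was taken from the 2 medians with either library left out, so it is no independent measure for those 2 values. In the 50% of optimal peaks with the highest signal, the window held 19 peaks with a median percentile of 74.3 and 8 forward matches; that list holds fewer and stronger peaks by construction. With either library left out, the median percentile ran from 53.0 (without replicate 1) to 64.7 (without replicate 2), and the cause was not tested. With gene 5′ ends only, 4 summits lay within 1 kb, since internal TSSs were dropped. At the stricter motif score 8 matches were left, of which 6 were forward and none lay at Dmpk. The single summit from the Dmpk 3′ end to Six5 was also the only one in the conservative list, in the upper set of either library and in the highest-signal 50%, while the full lists of replicate 1 and of the pooled libraries held 7 and 4. No paired analysis was possible because the libraries form 1 group. Depth is unknown, so a peak missing from a list was not detected there and may still be bound.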
